A study of Bos taurus with 2 samples.

Results

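Kinesins are motor proteins that use ATP to move along microtubules or to take microtubules apart. The genes described here are the 43 genes, of 24616 listed, whose symbol in the expression tables begins with KIF followed by a digit or C, or with KLC followed by a digit, which takes in the motors and the light chains of the founding motor. RNA sequencing measured their expression in bovine seminiferous tubules, the tubes of the testis where germ cells divide and turn into sperm. One library came from a calf aged 9 months and 1 from a calf aged 3 months, both from flash-frozen pieces of tubule, with total RNA as the starting material. The labels name no breed, treatment or genotype, and each age rests on 1 calf.

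Several uses of these motors meet in the testis. Mitotic kinesins build the spindle, move chromosomes and finish cell division, and they also work in the meiotic divisions. Transport kinesins carry vesicles, mitochondria and other cargo, in many cases through adaptors. Ciliary kinesins build or regulate cilia, and in mice several of them act in the manchette and the tail of the spermatid. The members were split by these roles into 12 mitotic, 17 transport and 10 ciliary genes, and 4 genes, KIF12, KIF25, KIF26A and KIF26B, were put in none of them.

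Counts summed to 29782234 in the 9-month library, against 37600534 in the 3-month library. With 1 library per age there is no replicate check, no test across genes and no p-value, so every difference below is between these libraries and not between the ages in general. Levels are in scaled RPKM, the counts per kilobase of listed gene length and per 1000000 counts of the effective library size (the total after TMM scaling). Folds are of the 9-month over the 3-month library, followed in brackets by a 95% exact interval that covers counting error only. A call of higher or lower needed a 2-fold difference and an interval that left out a ratio of 1, and any other gene counts as within 2-fold. All 43 members had at least 10 counts over both libraries and were measured.

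Among the 43 kinesin genes, 27 were higher in the 9-month library, 5 were lower and 11 lay within 2-fold. Members higher were 62.8% of the family, against 28.0% of the 18025 measured genes, and members lower were 11.6%, against 22.8%. Among the 11190 measured genes no shorter than the shortest member and no longer than the longest, from 1366 to 5708 bases, 27.4% were higher and 21.1% lower. At least 4-fold higher were 13 members (30.2%, against 17.3% of all measured genes), and no member was at least 4-fold lower, where 8.57% of all measured genes were. At least 16-fold higher were KIF2B, KIF17, KIF5C, KIF25 and KIF9, which is 11.6% of members against 7.65% of all measured genes. The median log2 ratio of the 43 members was 1.55, against 0.02 over all measured genes. In bulk tissue, more cells of a type and more RNA per cell cannot be told apart.

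The RNA of cell type markers differed widely between the libraries, and the part of cell make-up in the kinesin differences was not tested. All 10 spermatid markers were higher in the 9-month library, with a summed 2666 CPM (counts per 1000000 of the same size) against 1.99 CPM in the 3-month library, where ODF1 was at 0 counts. All 10 spermatocyte markers were higher as well, with 1194 CPM against 35.6 CPM and none at 0. Of 8 markers of cell proliferation 5 were higher and 3 within 2-fold, with 741 CPM against 337 CPM. Of 8 markers of spermatogonia 4 were higher and 4 within 2-fold, with 288 CPM against 190 CPM. Markers of Sertoli cells, the somatic nurse cells inside the tubule, went mostly the other way. Of 9 markers 5 were lower, and WT1, SOX9 and AMHR2 were within 2-fold. CLDN11 alone was higher, by 49.6-fold [43.2 to 57.2], with 319 CPM in the 9-month library against 6.44 CPM in the 3-month library. The 9 markers summed to 783 CPM in the 9-month against 4086 CPM in the 3-month library. Most of the 3-month sum came from INHA and AMH, with 2278 and 1185 CPM. Leydig cells lie between tubules. Of their 6 markers 5 were lower, and HSD17B3 was 8.13-fold higher [6.42 to 10.4]. These 6 still summed to 2741 CPM in the 9-month and 17512 CPM in the 3-month library. Whether that RNA came from interstitial tissue was not tested. Of 4 peritubular myoid markers 2 were higher and 1 lower, with 528 CPM against 185 CPM. Of 4 endothelial markers 1 was higher and 3 lower, with 104 CPM against 132 CPM. Of 4 macrophage markers 1 was higher and 2 lower, with 107 CPM against 238 CPM.

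**Figure D1:**
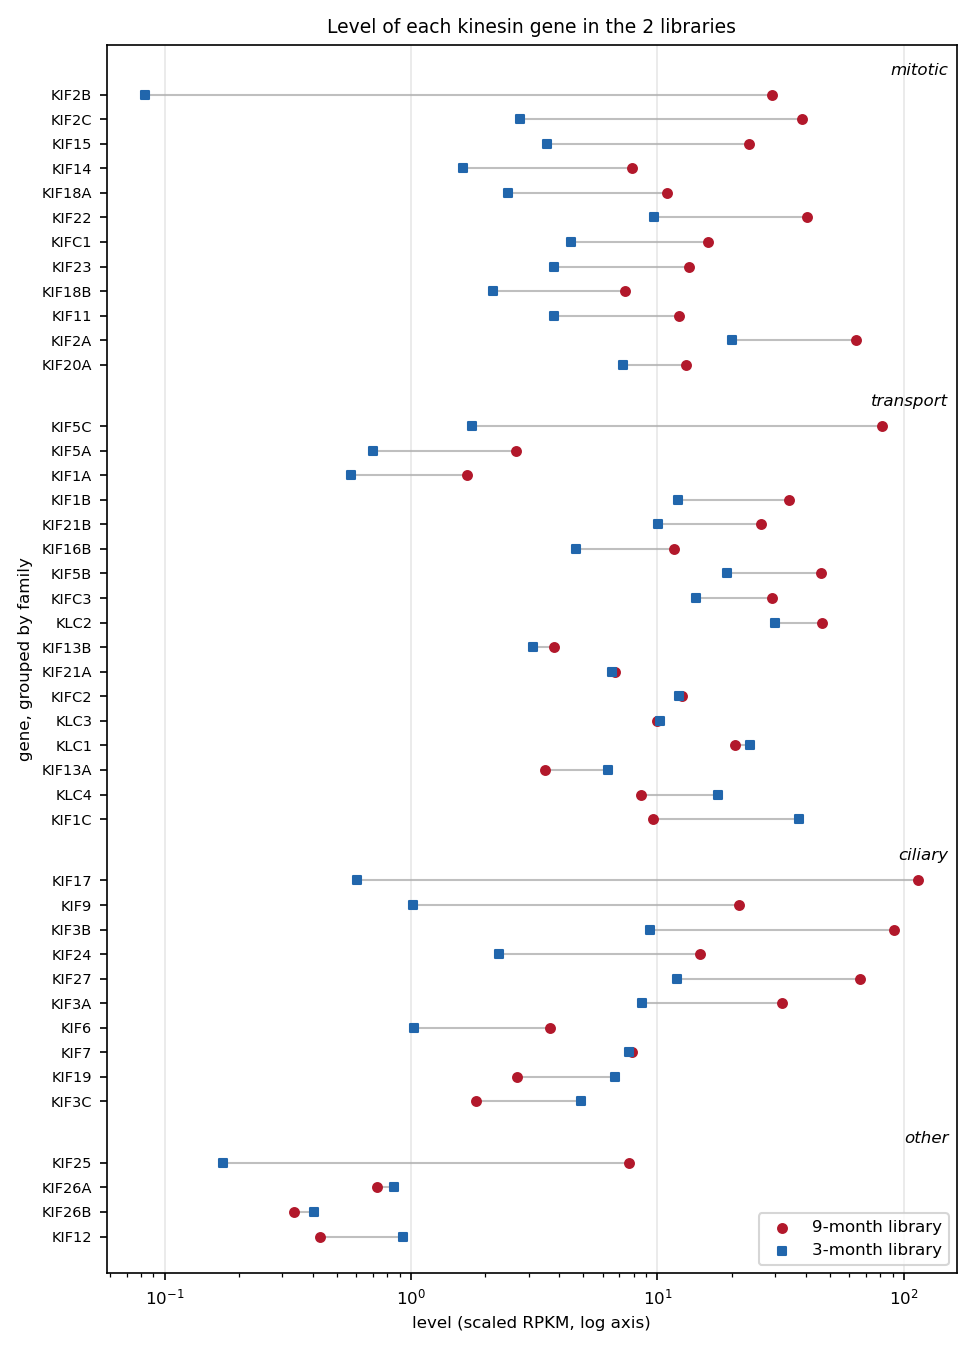
Level of each of the 43 kinesin genes in scaled RPKM on a log axis, with a circle for the 9-month library and a square for the 3-month library, ordered within each family by fold. KIF17, KIF5C and KIF2B span the widest gaps, at 115 against 0.602, 81.7 against 1.77 and 29.1 against 0.0834 scaled RPKM in the 9-month and the 3-month library.

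The kinesin genes as a whole took 0.424% of the counts of the 9-month library (95% Clopper-Pearson interval 0.422 to 0.426), against 0.0942% of those of the 3-month one (0.0932 to 0.0952). Their levels summed to 998 scaled RPKM in the 9-month library, against 329 in the 3-month one, a ratio of 3.03. KIF17, KIF3B and KIF5C made up 41.3% of that difference, and without them the ratio was 2.24. The order of levels changed as well. In the 9-month library the order from the top was KIF17, KIF3B, KIF5C, KIF27 and KIF2A, which together held 41.9% of the summed level there and 13.3% of it in the 3-month library. In the 3-month library the leading 5 were KIF1C, KLC2, KLC1, KIF2A and KIF5B, which held 18.8% of the summed level in the 9-month library and 39.7% of it in the 3-month library. Only KIF2A stood in both leading groups. Set among all measured genes, the median member stood at the 58.9th percentile of level in the 9-month library. In the 3-month library the median member stood at the 41.4th. In the 9-month library 5 members passed the 90th percentile, near the share of all measured genes that lies above it by definition. In the 3-month library 0 members passed it. Transport genes held 35.6% of the summed level in the 9-month library, against 64.1% in the 3-month library, ciliary genes 35.7% and 16.4%, and mitotic genes 27.7% and 18.8%, in the same order of libraries.

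The mitotic kinesins were higher in the 9-month library in 11 of 12 cases, and the remaining gene, KIF20A, was within 2-fold. Members higher were thus 91.7%, against 28.0% of all measured genes. Their median log2 ratio was 1.96, and their summed level was 277 scaled RPKM in the 9-month library, against 61.8 in the 3-month library. Under each scaling tried, all 12 had a fold above 1, though the only downward shift tried was -0.10 on the log2 scale. Leaving aside KIF2B and KIF2C, the other 10 lay between 1.79-fold and 6.64-fold higher.

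The kinesin-13 group, motors that take microtubule ends apart instead of walking, held the mitotic genes with the widest differences. KIF2B (ENSBTAG00000017345), which in human cells corrects faulty attachments of chromosomes to the spindle, had 2266 counts in the 9-month library, against 6 in the 3-month library. Its level was 29.1 scaled RPKM against 0.0834, a fold of 348 [160 to 951], where the width of the interval comes from the 6 counts. KIF2C, the depolymerase of centromeres also called MCAK, had 3806 counts against 252, or 38.5 against 2.76 scaled RPKM, and was 13.9-fold higher [12.3 to 15.9]. KIF2A, which acts at spindle poles and also trims microtubules in neurons, was the most abundant mitotic member in both libraries. It had 5260 counts against 1518, or 64.3 against 20.1 scaled RPKM, and was 3.20-fold higher [3.02 to 3.39]. The balance among the depolymerases therefore differed, and ratios between genes of 1 library do not depend on the scaling. KIF2B stood at 0.452 of the level of KIF2A in the 9-month library [0.430 to 0.475] and at 0.00415 in the 3-month library [0.00152 to 0.00905]. KIF2C stood at 0.598 of KIF2A [0.574 to 0.624] and at 0.137 [0.120 to 0.157], in the same order of libraries.

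The motors that build and hold the spindle differed by unlike amounts. KIF15, a motor that helps keep the 2 spindle poles apart, had 3909 counts in the 9-month library, against 543 in the 3-month library, 23.6 against 3.55 scaled RPKM, and was 6.64-fold higher [6.07 to 7.28]. KIF11, also called Eg5, which slides antiparallel microtubules to form the bipolar spindle, had 1626 counts against 467 and was 3.21-fold higher [2.90 to 3.57]. Per length KIF15 stood at 1.92 times KIF11 in the 9-month library [1.82 to 2.04], whereas the levels lay close together in the 3-month library, at a ratio of 0.931 [0.821 to 1.06]. KIFC1, a minus-end-directed motor of kinesin-14 that bundles spindle poles and in rats has been placed at the spermatid acrosome and nucleus, had 1269 counts against 324 and was 3.61-fold higher [3.20 to 4.10].

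Motors of chromosomes and of the microtubule plus end lay in the same range. KIF22, the chromokinesin Kid that pushes chromosome arms towards the spindle equator, had 2951 counts against 648, or 40.6 against 9.66 scaled RPKM, and was 4.20-fold higher [3.86 to 4.58]. KIF18A, which damps the swings of chromosomes and is needed for germ cell divisions in mice, had 1219 counts against 256 and was 4.39-fold higher [3.84 to 5.05]. Its relative KIF18B, which shortens astral microtubules, had 787 against 211 and was 3.44-fold higher [2.95 to 4.03]. These 3 genes differed by similar folds although KIF22 was the most abundant of them in both libraries.

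The motors of cell separation spread more widely. KIF14, which acts with citron kinase at the midbody, had 1046 counts in the 9-month library against 200 in the 3-month library and was 4.82-fold higher [4.14 to 5.64]. KIF23, the motor subunit of the centralspindlin complex, had 1572 against 412 and was 3.52-fold higher [3.16 to 3.93]. KIF20A, which carries the chromosomal passenger complex to the spindle midzone, had 1361 counts against 701, or 13.04 against 7.28 scaled RPKM, a fold of 1.79 [1.63 to 1.96], so that of the mitotic members it lay nearest to no difference. Both KIF23 and KIF20A overlap another protein-coding gene in the RefSeq annotation of assembly ARS-UCD2.0, PAQR5 and CDC23, and since the strand setting of the counting is not given, their values are uncertain. PAQR5 had 1316 counts against 9, while CDC23 had 914 against 855.

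Partners of the mitotic motors were mostly higher too. Of 17 measured genes of the spindle and midbody 14 were higher, 0 were lower and 3, HMMR, AURKB and TPX2, were within 2-fold, and the median log2 ratio was 1.90. Genes higher were 82.4% of that list, against 28.0% of all measured genes, and the folds ran from 1.00 for HMMR to 21.5 for CIT. CENPE, a kinesin of centromeres whose symbol falls outside the naming rule, had 1871 counts against 538 and was 3.21-fold higher [2.91 to 3.54]. CIT, which encodes citron kinase, had 7525 counts against 323 and was 21.5-fold higher [19.2 to 24.1], a wider difference than that of its partner KIF14. Per length CIT stood at 4.25 times KIF14 in the 9-month library [3.98 to 4.53] and at 0.953 times in the 3-month library [0.796 to 1.14]. RACGAP1, the other subunit of centralspindlin, kept almost the same ratio to KIF23, at 2.93 [2.75 to 3.11] and 2.65 [2.34 to 3.01] in the same order, and the ratio of these ratios was 1.10 [0.961 to 1.27]. Because the counts of KIF23 are uncertain through its overlap with PAQR5, these ratios are uncertain too. BUB1, AURKA and BUB1B, kinases or checkpoint factors of mitosis, were 7.95-fold [7.24 to 8.75], 6.97-fold [6.13 to 7.94] and 6.47-fold [5.90 to 7.11] higher. The 8 proliferation markers had a median log2 ratio of 1.30, and MKI67 among them was 2.30-fold higher [2.18 to 2.42]. KIF2C stood at 2.73 times MKI67 per length in the 9-month library [2.62 to 2.85] and at 0.45 times in the 3-month library [0.393 to 0.513].

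**Figure D2:**
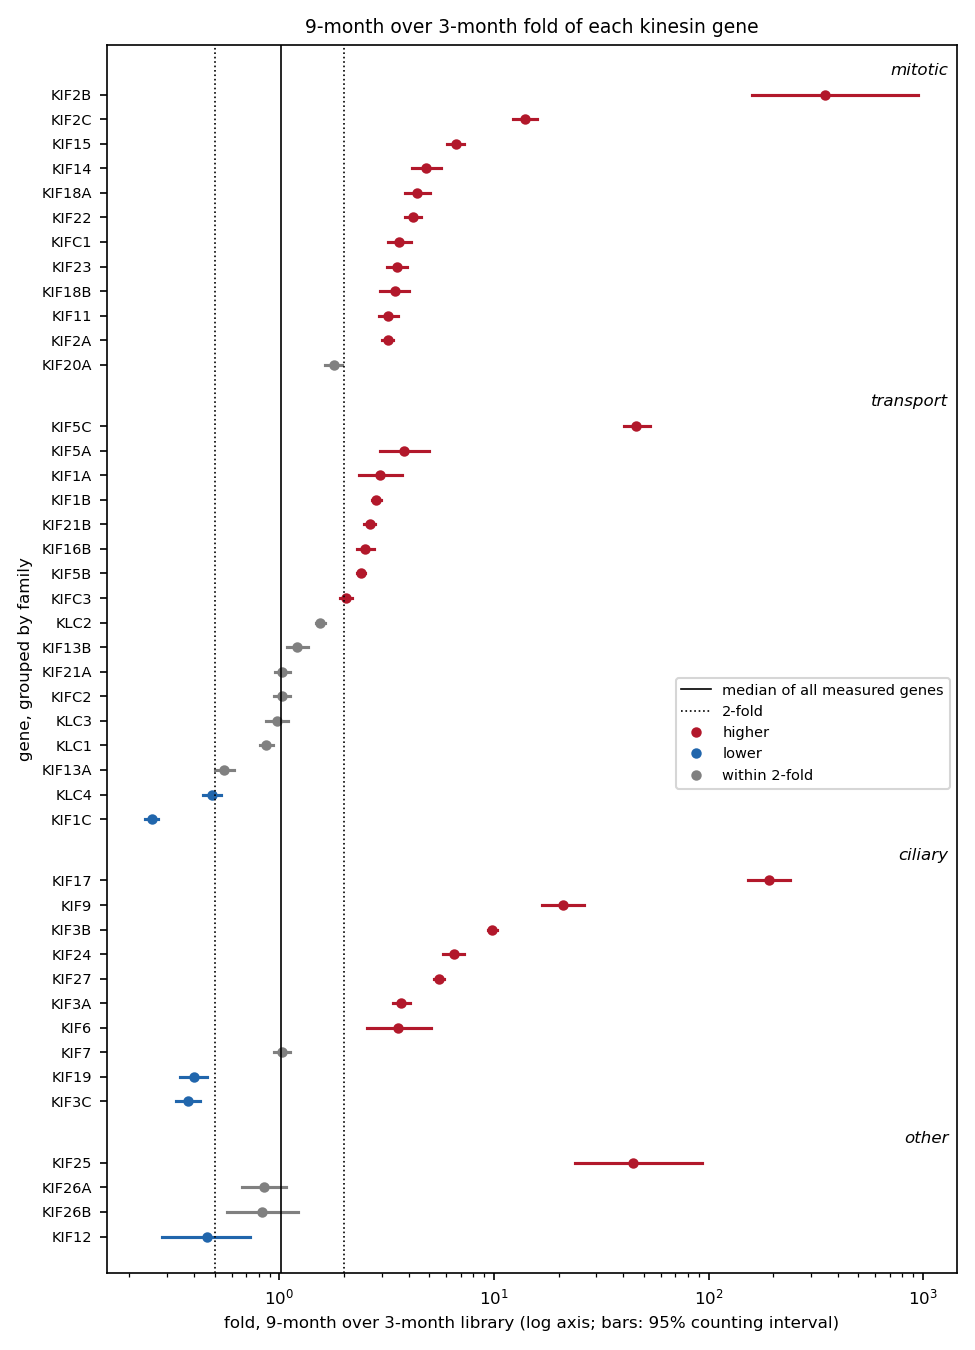
Fold of the 9-month over the 3-month library for each kinesin gene on a log axis, with 95% counting intervals as bars; the solid line marks the median of all measured genes and the dotted lines 2-fold either way. All mitotic genes but KIF20A lie beyond the upper dotted line, while KIF1C, KLC4, KIF19, KIF3C and KIF12 lie beyond the lower one.

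Transport kinesins were divided. Of 17 members 8 were higher in the 9-month library, 2 were lower and 7 within 2-fold, and the median log2 ratio was 0.63. The shares higher and lower were 47.1% and 11.8%, against 28.0% and 22.8% of all measured genes. Their summed level was 356 scaled RPKM in the 9-month library, against 211 in the 3-month library, a ratio of 1.69 that came to 1.31 without KIF5C.

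The heavy chains of kinesin-1, the founding motor that carries mitochondria, vesicles and RNA granules, differed in which gene led. KIF5C (ENSBTAG00000018125), best known from neurons, had 10557 counts in the 9-month library, against 211 in the 3-month library. Its level was 81.7 against 1.77 scaled RPKM, a fold of 46.2 [40.3 to 53.2]. KIF5B, the form found in most tissues, had 6462 counts against 2484, or 46.0 against 19.2 scaled RPKM, and was 2.4-fold higher [2.29 to 2.52]. KIF5A, another neuronal form, had 310 against 75 and was 3.81-fold higher [2.95 to 4.98]. KIF5C thus made up 62.7% of the heavy chain level in the 9-month library against 8.18% in the 3-month library, and KIF5B 35.3% against 88.6%. The ratio of KIF5C to KIF5B per length was 1.78 [1.72 to 1.83] and 0.0924 [0.0799 to 0.106] in the same order, and those ratios differed 19.2-fold [16.7 to 22.2].

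The light chains, which tie the heavy chains to cargo, did not differ by the same measure. KLC2 had 4693 counts against 2794, or 46.6 against 30.1 scaled RPKM, a fold of 1.55 [1.48 to 1.63], and KLC1 had 1716 against 1822, a fold of 0.869 [0.813 to 0.929]. KLC3, which in rats binds the outer dense fibre protein ODF1 in the sperm midpiece, had 585 counts against 556, a fold of 0.971 [0.863 to 1.09], although ODF1 itself had 8961 counts against 0. KLC4 had 621 against 1184 and was 2.07-fold lower [1.87 to 2.28]. The summed level of the 4 light chains was 85.9 scaled RPKM in the 9-month library, against 81.9 in the 3-month library, while that of the 3 heavy chains was 130 and 21.6. Heavy chains over light chains therefore came to 1.52 in the 9-month library, against 0.264 in the 3-month library. KLC1, KLC3 and KLC4 overlap XRCC3, ERCC2 and MRPL2 in assembly ARS-UCD2.0, and their values are uncertain for the same reason as those of KIF23.

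Within kinesin-3, a group of long-distance carriers, the leading gene also differed. KIF1C (ENSBTAG00000001349), which moves vesicles with integrins and Golgi membranes, had 1105 counts in the 9-month library, against 4016 in the 3-month library. At 9.56 against 37.7 scaled RPKM it was 3.94-fold lower [3.69 to 4.21], the widest difference downwards of any member. KIF1B, a carrier of mitochondria and of synaptic vesicle precursors, had 6530 counts against 2127, or 34.2 against 12.1 scaled RPKM, and was 2.83-fold higher [2.70 to 2.98]. KIF1B thus stood at 3.58 times KIF1C per length in the 9-month library [3.36 to 3.82] and at 0.321 times in the 3-month library [0.304 to 0.338]. The summed level of the 7 genes of the class, KIF14 included, was nearly equal, at 72.3 and 66.0 scaled RPKM. KIF1A, a carrier of synaptic vesicle precursors in neurons, was low in both libraries, with 327 and 102 counts, and was 2.96-fold higher [2.36 to 3.73]. KIF16B, a motor of early endosomes, had 1749 counts against 643 and was 2.51-fold higher [2.29 to 2.75]. KIF13A, which carries the mannose-6-phosphate receptor, had 646 counts against 1075, a fold of 0.554 [0.502 to 0.612], and its relative KIF13B had 754 against 574, a fold of 1.21 [1.09 to 1.35].

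The other transport motors lay close to even or moderately higher. KIF21B, which restrains microtubule growth, had 4467 counts against 1564 and was 2.63-fold higher [2.49 to 2.79], while its paralog KIF21A had 1276 against 1140, a fold of 1.03 [0.953 to 1.12]. Of the minus-end-directed kinesin-14 members, KIFC3, which works in apical transport and at cell junctions, had 2716 counts against 1227 and was 2.04-fold higher [1.91 to 2.19], the member just inside the limit for a call. KIFC2, known from dendrites, had 1077 against 966, a fold of 1.03 [0.942 to 1.12]. KIF25 (ENSBTAG00000007694), a related motor of centrosomes in human cells that was put in no family, had 480 counts in the 9-month library, against 10 in the 3-month library and was 44.3-fold higher [23.9 to 92.9].

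Among 19 measured cargo adaptors and regulators of transport 6 were higher, 3 lower and 10 within 2-fold, and the median log2 ratio was 0.17. The shares higher and lower, 31.6% and 15.8%, were near those of all measured genes, 28.0% and 22.8%. FEZ1, which binds kinesin-1 and is known from axons, had 90 counts in the 9-month library, against 2095 in the 3-month library and was 25.2-fold lower [20.4 to 31.5]. MAPK8IP1, a scaffold that light chains carry, had 1875 against 301 and was 5.75-fold higher [5.09 to 6.51]. KTN1, which encodes the kinesin receptor kinectin of the endoplasmic reticulum, had 12449 against 3474 and was 3.31-fold higher [3.18 to 3.43]. SYBU, an adaptor of kinesin-1 in neurons, had 174 counts against 54 and was 2.97-fold higher [2.18 to 4.11]. The adaptors of mitochondria, TRAK1, TRAK2, RHOT1 and RHOT2, were all within 2-fold, between 0.541 and 1.06.

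**Figure D3:**
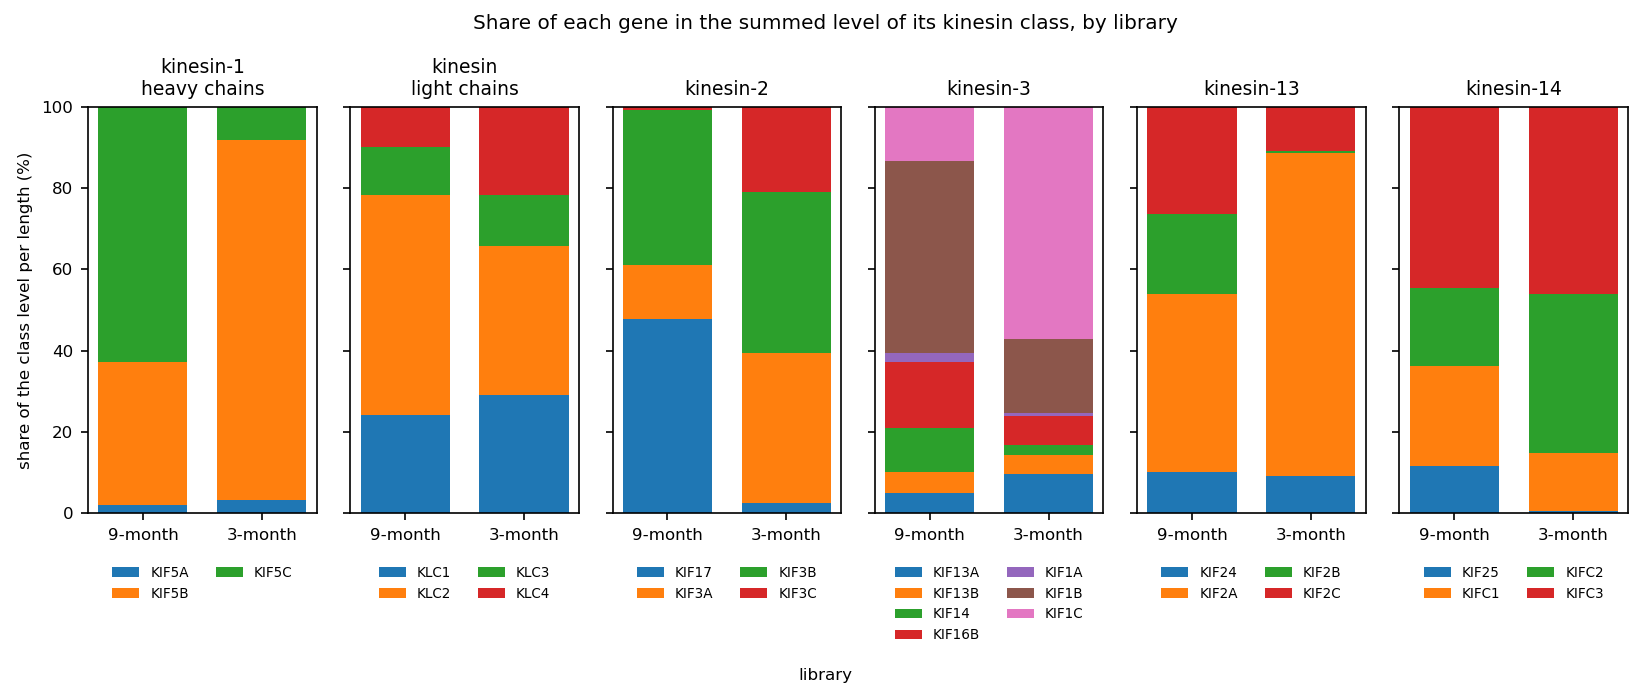
Share of each gene in the summed level per length of its class, in percent, with the 9-month library as the left bar and the 3-month library as the right bar of each panel. KIF5C, KIF17 and KIF1B are the leading genes of kinesin-1, kinesin-2 and kinesin-3 in the 9-month library. In the 3-month library KIF5B leads kinesin-1 and KIF1C leads kinesin-3. In kinesin-2 KIF3B and KIF3A are nearly equal there, at 39.8% and 36.8%.

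Ciliary kinesins held the member with the highest level of all in the 9-month library, KIF17. Of 10 members 7 were higher, 2 were lower and KIF7 was within 2-fold, and the median log2 ratio was 2.18. Members higher were 70%, against 28.0% of all measured genes. The share lower, 20%, was near the 22.8% of all measured genes. The summed level was 357 scaled RPKM in the 9-month library, against 54.2 in the 3-month library, a ratio of 6.58 that came to 4.52 without KIF17.

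Kinesin-2 motors pull the trains of intraflagellar transport that build cilia and flagella. KIF17 (ENSBTAG00000017644), which works in cilia as a pair of identical chains and in mouse spermatids carries a coactivator of the transcription factor CREM, had 16096 counts in the 9-month library, against 78 in the 3-month library. Its level was 115 against 0.602 scaled RPKM, a fold of 190 [152 to 241]. KIF3B (ENSBTAG00000003215), which with KIF3A and the protein KIFAP3 makes the 3-part motor of intraflagellar transport, had 18208 counts against 1712, or 91.6 against 9.33 scaled RPKM, and was 9.81-fold higher [9.34 to 10.3]. KIF3A, whose loss in mouse germ cells disturbs the tail and the manchette, had 2575 counts against 641, or 32.0 against 8.64 scaled RPKM, and was 3.71-fold higher [3.40 to 4.05]. KIF3C, an alternative partner of KIF3A known from neurons, had 327 counts against 806, or 1.83 against 4.89 scaled RPKM, and was 2.67-fold lower [2.35 to 3.05].

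The parts of the kinesin-2 motor did not keep their proportions. In the 9-month library KIF3B stood at 2.86 times KIF3A per length [2.74 to 2.98], while in the 3-month library they stood at nearly equal levels, with KIF3B at 1.08 times KIF3A [0.985 to 1.18]. KIFAP3, with 2821 counts against 1705, differed less than either motor, at a fold of 1.53 [1.44 to 1.62]. It stood at 0.868 times KIF3A in the 9-month library [0.822 to 0.916] and at 2.11 times in the 3-month library [1.92 to 2.31]. KIF17 made up 47.7% of the kinesin-2 level in the 9-month library, against 2.56% in the 3-month library, and KIF3C 0.762% and 20.8%. The class summed to 240 scaled RPKM in the 9-month library, against 23.5 in the 3-month library.

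Kinesin-9 motors belong to motile cilia. KIF9, which sits on the central pair of the axoneme and is needed for normal sperm movement in mice, had 1947 counts in the 9-month library, against 86 in the 3-month library and was 20.9-fold higher [16.8 to 26.2]. KIF6, which acts in the motile cilia of the brain lining in mice, had 174 against 45 and was 3.57-fold higher [2.56 to 5.07]. Per length KIF9 stood at 5.84 times KIF6 in the 9-month library [4.999 to 6.86], and at 0.998 times in the 3-month library [0.688 to 1.46]. KIF9 overlaps a protein-coding gene without a standard symbol in assembly ARS-UCD2.0, so its value is uncertain.

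The regulators of cilia included members on each side. KIF27, a relative of KIF7 whose fly counterpart acts in hedgehog signalling, had 9626 counts against 1607, or 66.1 against 11.96 scaled RPKM, and was 5.53-fold higher [5.24 to 5.83]. KIF7 itself, which organises the tip of the primary cilium and regulates GLI factors in hedgehog signalling, had 1182 counts against 1060, a fold of 1.03 [0.946 to 1.12]. It overlaps TICRR, which had 732 counts against 203, and its value is uncertain. KIF24, which keeps the centriole cap protein CCP110 in place and trims centriolar microtubules, had 2531 counts against 360 and was 6.49-fold higher [5.81 to 7.26]. KIF19, which limits the length of motile cilia in mice, had 281 counts against 651, or 2.69 against 6.75 scaled RPKM, and was 2.51-fold lower [2.18 to 2.90].

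Among 20 partners of ciliary kinesins 8 were higher, 1 was lower and 11 were within 2-fold, and the median log2 ratio was 0.74. The shares higher and lower were 40.0% and 5%, against 28.0% and 22.8% of all measured genes. HYDIN and SPEF2, proteins of the central pair and of the sperm tail, had 3679 counts against 202 and 904 against 108, and were 16.8-fold [14.6 to 19.5] and 7.72-fold [6.32 to 9.52] higher. NEK2, a centrosomal kinase that acts on KIF24, had 1975 counts against 141 and was 12.9-fold higher [10.9 to 15.4]. SMO, the signal transducer of the hedgehog pathway, had 775 counts against 4145 and was 5.80-fold lower [5.37 to 6.27], and its downstream factors GLI1, GLI2 and GLI3 were within 2-fold, between 0.548 and 0.823. Of the intraflagellar transport genes in the list, IFT52, IFT57, IFT81 and TRAF3IP1 were higher and IFT20, IFT74 and IFT88 within 2-fold. Multiciliated cells also carry motile cilia, and both of their measured markers were higher in the 9-month library, with a summed 7.46 CPM against 0.156 CPM. FOXJ1, a regulator of motile cilia genes, had 209 counts against 5 and was 38.6-fold higher [16.3 to 120]. GMNC had 51 counts against 0. With the floor of 3 counts in the 3-month library it was 15.7-fold higher, and its counting interval ran from 12.3 upwards without an upper limit. MCIDAS and CCNO, with 3 counts against 1 and 2 against 2, fell short of 10 counts over both libraries. Whether multiciliated cells were present at all, and what part they had in the ciliary kinesin differences, was not tested.

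The remaining genes of no assigned family were low in both libraries. KIF26A and KIF26B, atypical motors that do not move along microtubules, had 141 counts against 153 and 56 against 62, at folds of 0.850 [0.672 to 1.08] and 0.833 [0.570 to 1.22]. KIF12, known from bile ducts and kidney, had 29 against 58 and was 2.17-fold lower [1.37 to 3.51].

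**Figure D4:**
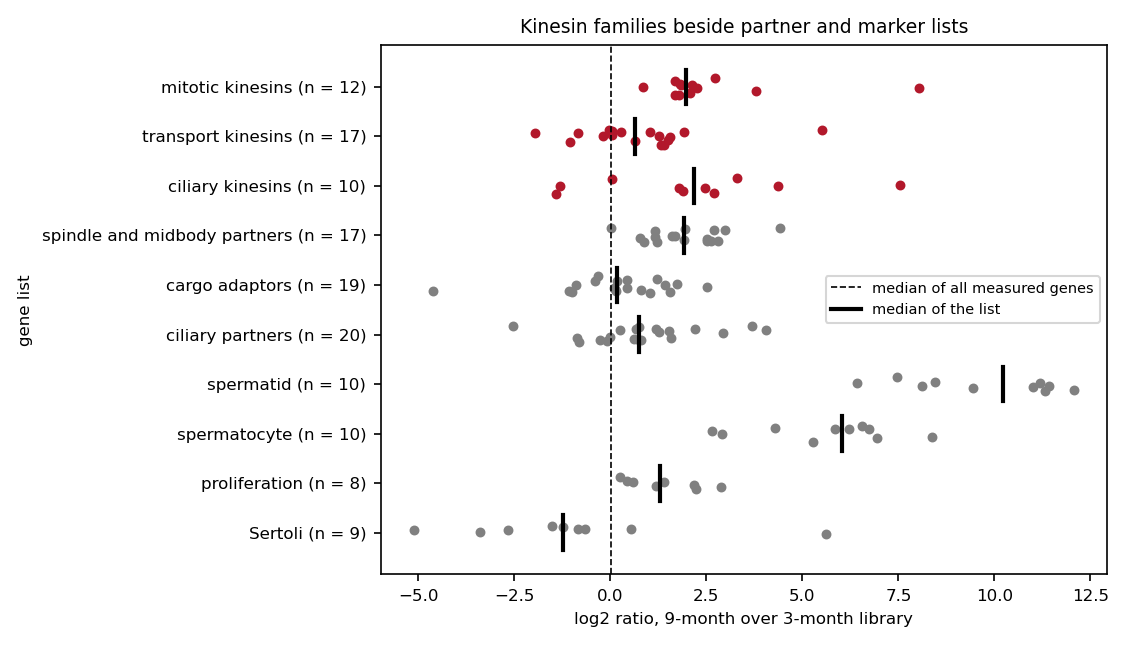
Log2 ratio of the 9-month over the 3-month library for each gene of the kinesin families (red) and of partner and marker lists (grey), with a thick bar at the median of each list and a dashed line at the median of all measured genes. The medians of mitotic and ciliary kinesins, 1.96 and 2.18, lie above that of transport kinesins, 0.63, and below those of the spermatocyte and spermatid markers, 6.03 and 10.2.

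Calls near the 2-fold limit depended on the scaling. With plain totals or reference-gene scaling KIF1C was the only member lower: KIF3C, KIF19, KLC4 and KIF12 came within 2-fold, with KIF3C at 0.512 and 0.5001, and KIF20A and KLC2 became higher. The members higher were then 96.7% of those called either way, against 84.4% with TMM. Over all measured genes the shares moved too. Genes higher and lower were 36.2% and 14.7% with plain totals and 35.4% and 15.2% with reference genes, against 28.0% and 22.8% with TMM.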

How the data were processed

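The submitters' processing notes name Trimmomatic 0.33, STAR 2.4.0 and build UMD3.1. Which program counted the reads, on which annotation, with which strand setting and with what treatment of multiple alignments is not given in the sources used. Each deposited table has no header line and holds raw counts per gene, a gene length and RPKM. The deposited RPKM equals counts per kilobase and per 1000000 of all counts in its table, within 0.000496% for the 9-month and 0.000492% for the 3-month table, and served only for this check.

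Counts were scaled by TMM in edgeR 4.0.16 under R 4.3.3 over genes with at least 10 counts in all, with factors of 1.17 for the 9-month and 0.855 for the 3-month library. Folds are ratios of scaled counts with a 95% conditional binomial (Clopper-Pearson) interval; against 0 counts a floor of 3 counts per library was used. PCR reads need not be independent molecules. Log2 ratios carry a prior count of 2. Scaled RPKM divides by the effective size. Ratios between genes of 1 library use counts per listed length, with an exact interval. Their ratio between libraries carries a 95% interval from a normal approximation on the log scale. On simulated Poisson counts for 18014 genes of this comparison, 100% of 200 genes changed 4-fold were called and 95.5% of intervals held the true fold. Only these 200 well-counted genes were changed, evenly up and down. The real libraries differed in far more genes and not evenly. The simulation therefore checks the calculation, and cannot show how well the scaling or the intervals hold for these libraries.

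The members, lists and roles were chosen with earlier results of these data known, and the gene pairs set side by side were chosen after their values were seen. The naming rule took members of at least 100 counts with at least a 4-fold difference, the 3 highest levels of each family in each library and the members nearest to no difference; all other members are also given. From each partner list it took up to 4 genes of at least 100 counts with the widest log2 ratios, with KIFAP3 and CENPE; other partners were named after their values were seen. All 43 symbols were found in the RefSeq table of assembly ARS-UCD2.0, used only for neighbours, in which 20 members overlap another listed gene, 7 of them a protein-coding one. Alternatives were DESeq2 1.42.0 size factors, plain totals, upper-quartile factors, 14 symbols of reference genes, other count minimums, another prior count and a 4-fold limit. The reference genes were not even between the libraries. With TMM, of their 16 measured entries 1 was higher, 5 lower and 10 within 2-fold. Their folds ran from 0.238 for B2M to 5.72 for 1 of the ACTB entries. Other steps ran in Python 3.11.15 (scipy 1.17.1, numpy 2.4.6, matplotlib 3.10.9, pandas 2.3.3).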

Additional observations from a re-analysis of the deposited data

How the results depend on the processing

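The number of kinesin genes higher in the 9-month library stayed between 26 and 29 under every scaling tried. The share of all measured genes higher ran from 26.4% to 36.2% over these scalings. Every member passed each count minimum, so the minimums could not change the number. With a 4-fold limit, 13 members were higher. The number lower was 5, but 1 with plain totals, 1 with reference genes and 0 with a 4-fold limit. Median log2 ratios of all members, mitotic, transport and ciliary members were 1.99, 2.41, 1.08 and 2.63 with plain totals and 1.96, 2.37, 1.05 and 2.59 with reference genes; upper-quartile factors gave 0.53 for transport and 2.07 for ciliary members. These scalings move every gene alike, by 0.45, 0.42 and -0.10 on the log2 scale in that order, and the median of all measured genes was 0.46, 0.43 and -0.08. A prior count of 10 and minimums of 1 or 50 counts left these medians within the counting intervals of the middle members. For single members, no called direction turned round under any of them. The scalings could not turn one round, because a call needed a 2-fold difference and they moved log2 ratios by at most 0.45. KIFC3 lost its call with upper-quartile factors, at 1.90-fold. Depth limits KIF2B and KIF25 most, with 6 and 10 counts in the 3-month library. No paired analysis was possible because each age has 1 library, and no library could be left out.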
